A study of Apis mellifera with 36 samples.

Results

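Vitellogenin is the yolk precursor protein of insects. In the honey bee, Apis mellifera, it is made mainly by the fat body, circulates in the haemolymph and is also found in sterile workers. There it is known as a protein store that nurse bees draw on to make brood food, and as part of a mutual regulation with juvenile hormone: a high vitellogenin level is typical of young bees that nurse, and a low one of older bees that forage. The gene was chosen by its identifier, GB49544, as 1 of the 15314 gene IDs counted in this study. That identity comes from the name given with the ID, since 0 of the file IDs could be matched to the RefSeq gene table at hand.

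Vitellogenin was measured by RNA sequencing of brain tissue, mostly mushroom bodies with central brain, from 36 single worker bees aged 7 days. They comprised 12 unresponsive bees, which showed no overt reaction to an introduced bee or to a queen larva, 12 guards, which bit and stung the intruder in both of its assays, and 12 nurses, which tended the larva in both of its assays. Each type came in equal parts from colony 6 and colony 5, both labelled SDI, the usual term in bee research for single-drone-inseminated queens, whose workers are close sisters, so that each colony stands for 1 family. All had been kept from emergence in dishes of 10 bees with honey, sugar solution and pollen, and per the labels' protocols the hypopharyngeal glands, the food glands of the head, were removed before the brain was taken out. The label of each library also gives its reads mapped to the deformed wing virus (DWV), an RNA virus that infects bees, from which a load in virus reads per 1000000 total reads (RPM) was computed. Bees are named by type and by the number in their title. Levels are counts per 1000000 counts over all genes (CPM), and the 36 libraries rested on 16167731 to 27548410 counts in genes. The files hold no gene names, so marker genes of brain, fat body or glands were not analysed here, and whether tissue other than brain moved with vitellogenin was not tested. In a piece of tissue, fewer cells that make a transcript and less of it per cell cannot be told apart.

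Vitellogenin was among the most variable genes of these brains. It ran from 0.508 CPM in Guard 213, which rested on 14 reads, to 908 CPM in Nurse 210, which rested on 16542 reads, a 1787-fold span between bees of the same age and of a single colony. The median bee had 2.60 CPM. The exact Poisson interval for Guard 213, which covers counting error only, was 0.278 to 0.853 CPM at a confidence of 95%, and that for Nurse 210 was 895 to 922 CPM, so counting error was small beside the differences between bees. In Nurse 210 vitellogenin was the gene of rank 105 by reads out of 15314, and in Guard 213 of rank 10686. The coefficient of variation over the 36 bees was 310%, against a median of 10.1% over the 8991 genes with a mean of at least 4 CPM, and only 3 of those genes had a higher one. Both values leaned on Nurse 210, without which it was 174% and 28 genes had a higher one. Levels were unevenly filled: 9 bees stood at 53.9 CPM or above, 26 at 12.2 CPM or below, and Nurse 237 alone lay between them at 19.7 CPM.

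Unresponsive bees had low vitellogenin throughout, and nurses held most of the high values. In the 12 unresponsive bees the lowest, median and highest levels were 0.760, 1.88 and 12.2 CPM. In guards they were 0.508, 1.53 and 125 CPM. In nurses they were 1.12, 36.8 and 908 CPM, and the nurse median was 19.7 CPM without Nurse 210. All groups overlapped at the low end, while 0 of 12 unresponsive bees, 3 of 12 guards and 6 of 12 nurses exceeded 50 CPM. The geometric mean was 2.46 CPM in unresponsive bees, 3.48 CPM in guards and 21.9 CPM in nurses, and the SD of log2 CPM was 1.29 in unresponsive bees, 2.91 in guards and 3.13 in nurses (n = 12 each). Arithmetic means were 3.68 ± 3.88 CPM in unresponsive bees, 23.0 ± 41.2 CPM in guards and 122 ± 254 CPM in nurses (SD, n = 12 each), and Nurse 210 alone made up 62.1% of the nurse total.

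**Figure D1:**
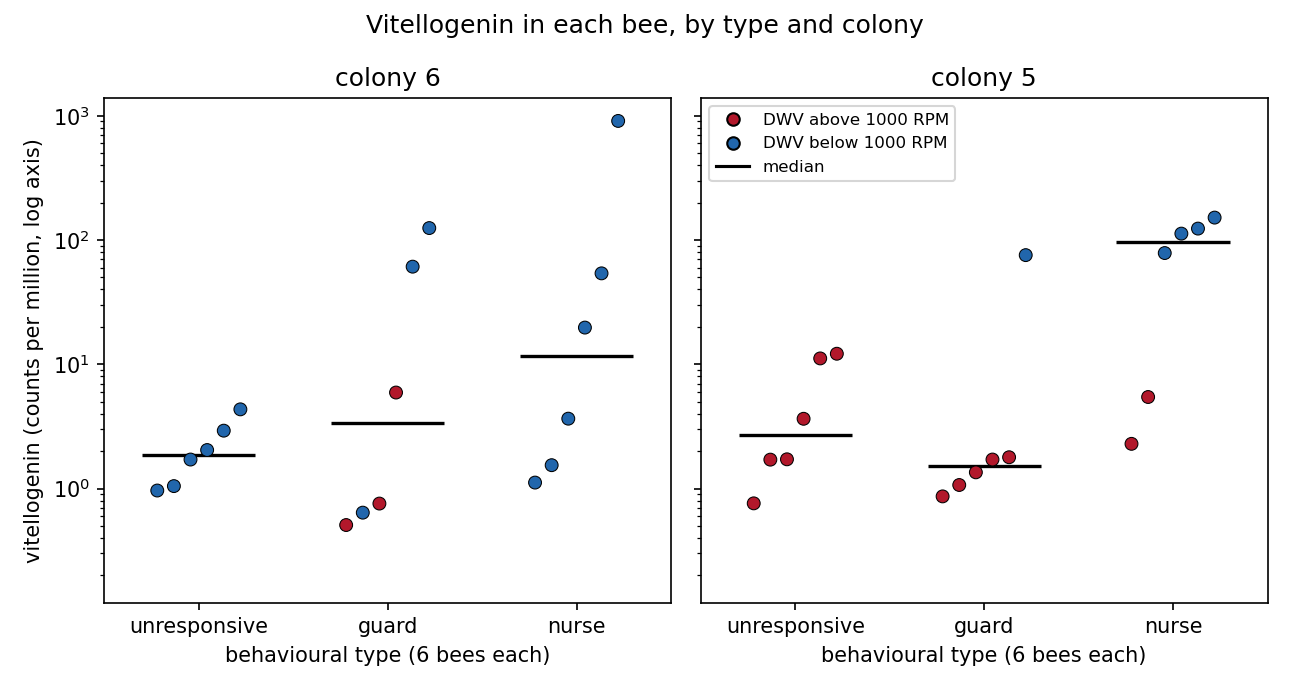
Vitellogenin in CPM on a log axis for each of the 36 bees, by behavioural type, with colony 6 on the left and colony 5 on the right. Each point is a bee, the bar is the median of 6 bees, and colour marks a DWV load above or below 1000 RPM. No unresponsive bee exceeds 12.2 CPM, nurses reach 908 CPM, and every bee above 50 CPM has a load below 1000 RPM.

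Unresponsive bees were lower on average than nurses by a permutation test of vitellogenin as a single value, but the difference did not pass across all genes by the main test. The difference of mean log2 CPM, averaged over the colonies, was -3.16 in a two-sided permutation test of types within colony (p = 0.00357, adjusted p = 0.0107 over the 3 pairs of types). The quasi-likelihood test of edgeR, fitted to all 10948 genes that passed its filter on low counts, gave a log2 change of -4.90 ± 1.13 (SE) with an unadjusted p of 0.000138 and an adjusted p of 0.301. Only 4 genes had a smaller p in that comparison. At an adjusted p under 0.05 edgeR called 0% of the genes, that is 0 of them. An unadjusted p below that limit was found in 591 of the 10948 genes, about the share that chance alone would give. DESeq2 called 8 genes in it, and gave vitellogenin a log2 change of -4.90 ± 0.88 (SE) with an adjusted p of 0.000158. The count models compare arithmetic means, on which a few bees with high levels weigh most, while the permutation test compares means of logs.

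Guards lay below nurses, with a difference of -2.66 in mean log2 CPM (permutation p = 0.0484, adjusted to 0.0726). That value sits close to the threshold. When each of the 24 bees was left out in turn, adjusted permutation p ran from 0.0313 to 0.160. It fell below 0.05 only for 6 of them, guards with high levels and nurses with low levels, which run against the difference. Adjusted p was 0.0313 without Guard 222, 0.0320 without Guard 35, 0.0403 without Guard 205, 0.0421 without Nurse 5, 0.0428 without Nurse 230 and 0.0487 without Nurse 222. By edgeR the log2 change was -2.42 ± 0.95 (SE) with an adjusted p of 0.225, in a comparison where 0.0913% of genes, 10 in number, were called, and it was -0.78 without Nurse 210. Unresponsive bees and guards differed by -0.50 in mean log2 CPM (permutation p = 0.602), less than the SD of either group, and the difference ran from -0.82 to -0.01 when 1 bee at a time was left out. By edgeR their log2 change was -2.48 ± 1.10 (SE) with an adjusted p of 0.276, where 0.0183% of genes were called. The higher arithmetic mean of guards rested on Guard 35, Guard 205 and Guard 222, at 75.6, 61.0 and 125 CPM, while 8 of 12 guards and 6 of 12 unresponsive bees lay below 2 CPM.

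Within colony 6, the 6 unresponsive bees had 0.963, 1.05, 1.71, 2.04, 2.92 and 4.34 CPM. The 6 guards had 0.508, 0.639, 0.756, 5.92, 61.0 and 125 CPM. The 6 nurses had 1.12, 1.54, 3.65, 19.7, 53.9 and 908 CPM. The upper part of the nurses and guards lay above every unresponsive bee, while the lower part overlapped with them. The difference of unresponsive bees from nurses was -2.84 in mean log2 CPM (exact permutation, p = 0.0952, adjusted p = 0.190 over the 6 comparisons within colonies) and that of guards from nurses was -1.52 (adjusted p = 0.571).

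Within colony 5, the 6 unresponsive bees had 0.760, 1.71, 1.72, 3.64, 11.1 and 12.2 CPM. The 6 guards had 0.864, 1.07, 1.35, 1.71, 1.78 and 75.6 CPM. The 6 nurses had 2.29, 5.45, 78.5, 113, 124 and 151 CPM. Guards other than Guard 35 all lay below every nurse. The differences from nurses were -3.47 for unresponsive bees (exact permutation, p = 0.0281, adjusted p = 0.0844) and -3.80 for guards (p = 0.0173, adjusted p = 0.0844). Each colony alone therefore had the same sign for both differences from nurses, and none passed after adjustment. The interaction of type and colony tests whether the types stand apart by unequal amounts in the 2 families. By edgeR it had an adjusted p of 1.00 for vitellogenin, with 5050 genes at a smaller p, and it called 0.0274% of genes. With DWV load as a covariate its unadjusted p was 0.00169, a value that 27 genes undercut, and its adjusted p was 0.625. Load range and colony coincided among unresponsive bees, so that fit cannot decide whether the types differ alike in both families at equal load.

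Colony itself was not a detectable axis for this gene, although it was for many others. Vitellogenin averaged 2.30 ± 3.04 log2 CPM in colony 6 and 2.73 ± 2.77 log2 CPM in colony 5 (SD, n = 18 each), a difference of -0.43 within types (permutation p = 0.621). By edgeR the log2 change of colony 6 over colony 5 was 0.59 ± 0.83 (SE) with an adjusted p of 0.617, in a comparison that called 34.1% of genes. Its sign depended on Nurse 210 and was -0.70 without that bee. The colonies were compared at unlike load, since 13 of 18 colony 5 bees and 3 of 18 colony 6 bees had a DWV load above 1000 RPM. By edgeR the change was -1.05 with load as a covariate (adjusted p = 0.507). In the 20 libraries below 1000 RPM alone it was 0.28 (adjusted p = 0.908).

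High vitellogenin was found only in bees with little DWV. Load was 6673 to 28967 RPM in 16 libraries and 2.60 to 63.9 RPM in the other 20, with nothing between. In the 16 libraries of the higher range vitellogenin had a lowest, median and highest level of 0.508, 1.71 and 12.2 CPM, and in the 20 of the lower range 0.639, 12.0 and 908 CPM. All 9 bees above 50 CPM were in the lower range. The converse did not hold, since 6 of the 20 bees of the lower range had less than 2 CPM.

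**Figure D2:**
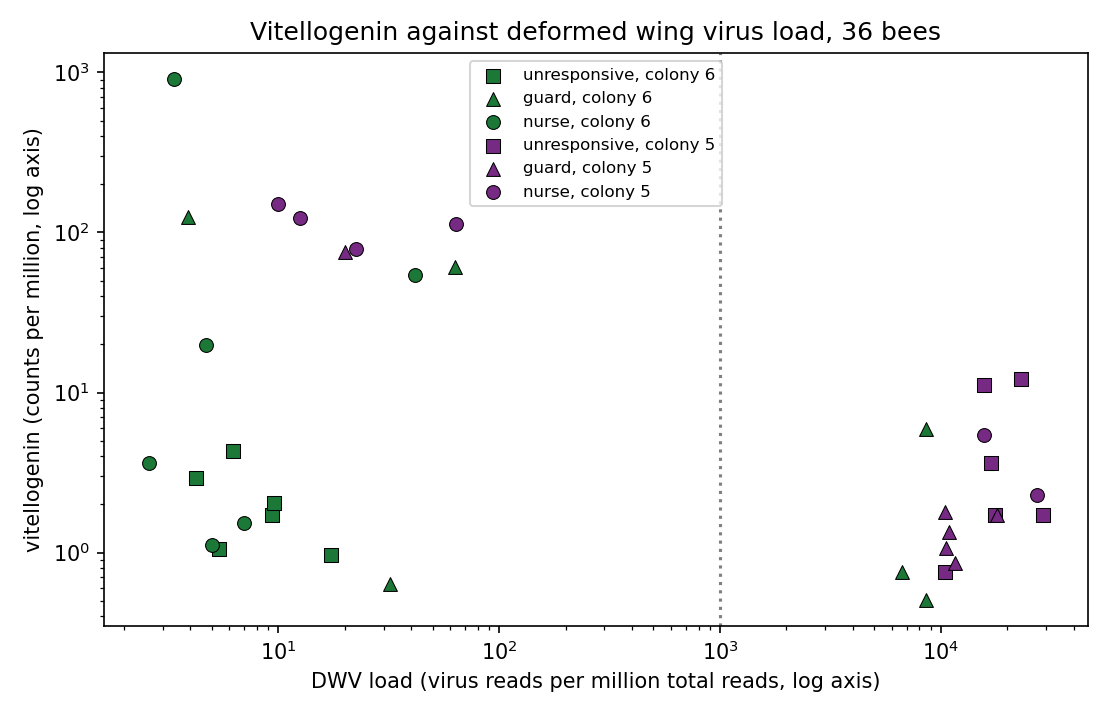
Vitellogenin in CPM against DWV load in RPM, both on log axes, with 1 point per bee, the marker showing the type and the colour the colony. The dotted line at 1000 RPM lies in the gap between the load ranges. Bees to its right reach at most 12.2 CPM. To its left the 5 colony 5 bees all lie at 75.6 CPM or above, and the 15 colony 6 bees spread from 0.639 to 908 CPM.

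In colony 5 the load ranges did not overlap in vitellogenin. The 13 bees of the higher range had a lowest, median and highest level of 0.760, 1.72 and 12.2 CPM. The 5 bees of the lower range, Guard 35, Nurse 35, Nurse 19, Nurse 32 and Nurse 40, had 75.6, 78.5, 113, 124 and 151 CPM. Mean log2 CPM was 1.21 ± 1.29 (SD, n = 13) in the higher range and 6.71 ± 0.43 (SD, n = 5) in the lower, a difference of -5.50 (exact permutation over 8568 arrangements, p = 0.000117, the smallest p they can give). Of the 10948 genes tested, 4 had all 13 bees of the higher range below all 5 of the lower, or 0.0365%, and 1 had all 13 above. For a gene unrelated to load, 1 of the 8568 arrangements places all 13 below. Vitellogenin had the widest gap of the 4, with its lowest level in the lower range 6.22-fold above its highest level in the higher range. The next widest gaps, named after their values were seen, were 1.69-fold for GB53371 and 1.14-fold for GB51698.

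Load and type moved together in colony 5, where the higher range held every unresponsive bee, 5 of 6 guards and 2 of 6 nurses, so the comparison was repeated within types. Among colony 5 nurses, Nurse 5 and Nurse 36 of the higher range had 2.29 and 5.45 CPM, and the 4 of the lower range had 78.5 to 151 CPM. Among colony 5 guards, the 5 of the higher range had 0.864 to 1.78 CPM, and Guard 35, of the lower range, had 75.6 CPM. With load ranges permuted within these types the mean difference was -5.43 log2 units (exact permutation over 90 arrangements, p = 0.0111, the smallest p they can give). Since the ranges did not overlap in colony 5, as shown above, this p was fixed in advance and adds no support. Among colony 6 guards, Guard 213, Guard 237 and Guard 230 of the higher range had 0.508, 0.756 and 5.92 CPM, and Guard 210, Guard 205 and Guard 222 of the lower range had 0.639, 61.0 and 125 CPM. These 2 ranges overlapped through Guard 210 (difference -3.69, exact permutation p = 0.300). Over these 3 sets of bees together the difference was -4.85 (exact permutation over 1800 arrangements, p = 0.00167). That value reuses the same colony 5 guards and nurses, so it is not separate support. The comparisons within types were chosen after the values had been seen.

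Low vitellogenin also occurred at low load, in colony 6. All 6 unresponsive bees of that colony had loads of 4.27 to 17.3 RPM and vitellogenin of 0.963 to 4.34 CPM, so every unresponsive bee of the study was low. Among unresponsive bees the higher range held colony 5 alone and the lower range colony 6 alone, so load range and colony cannot be told apart in this type. The 6 colony 6 nurses had loads of 2.60 to 41.6 RPM and spread from 1.12 to 908 CPM. Restricted to the 20 libraries of the lower range, edgeR gave unresponsive bees against nurses a log2 change of -6.12 ± 1.61 (SE) with an unadjusted p of 0.00153 and an adjusted p of 0.998. In that subset all 6 unresponsive bees were of colony 6, while the 10 nurses included 4 of colony 5, at 78.5 to 151 CPM. The mean of the 6 colony 6 nurses was 165 CPM, and 16.0 CPM without Nurse 210. Within the higher range types overlapped: the 6 unresponsive bees ran from 0.760 to 12.2 CPM, the 8 guards from 0.508 to 5.92 CPM, and the 2 nurses had 2.29 and 5.45 CPM.

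Load fell in 2 separate ranges, so a slope on it mostly compares those ranges and does not show a graded relation. Among unresponsive bees load range also coincided with colony. As a slope with type and colony in the model, the edgeR estimate for vitellogenin was a log2 change of -1.16 ± 0.38 (SE) for each 10-fold higher load. Its unadjusted p was 0.00427, a value that 54 genes undercut, and its adjusted p was 0.788. This slope was called in 0% of genes, 0 in number by edgeR, and in 12 genes by DESeq2. By edgeR 479 of the 10948 genes had an unadjusted p under 0.05, no more than chance alone would give at that limit. Without behavioural type in the edgeR model the slope was -1.68 ± 0.32 (SE) with an adjusted p of 0.0110, and 56 genes were called. The higher range held 6 of 12 unresponsive bees, 8 of 12 guards and 2 of 12 nurses, so that slope can take in differences between types. With load as a covariate the log2 change of unresponsive bees from nurses was -2.98 ± 1.26 (SE) with an adjusted p of 1.00 by edgeR, against -4.90 without it.

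Within each load range no relation of vitellogenin to load passed. For the 16 bees above 1000 RPM, Pearson's r of log2 CPM with log10 load was 0.459 and Spearman's rho 0.497 (permutation p of 0.0737 and 0.0518, adjusted 0.247 and 0.207 over 4 relations). Dropping the 2 bees whose load lay farthest from the median gave r of 0.621. The sign of this r was opposite to that of the difference between the ranges. The 13 of them from colony 5 had r of 0.450 and rho of 0.467 (adjusted permutation p of 0.247 and 0.222), and r of 0.728 without the 2 farthest. The 20 bees below 1000 RPM gave r of 0.188 and rho 0.0286 (adjusted permutation p of 0.564 and 0.907), and 0.0138 when the 2 farthest were dropped. The 15 of them from colony 6 had r of -0.0332 and rho of -0.304 (adjusted permutation p of 0.909 and 0.363), and r of -0.567 without the 2 farthest.

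Each number in the titles is shared by an unresponsive bee, a guard and a nurse of the same colony, and the labels do not say what it marks. Nurses had the highest vitellogenin of the trio in 9 of 12 numbers and guards in 3, and the unresponsive bee was highest in 0. The guard was lowest in 7 of 12, the unresponsive bee in 4 and the nurse in 1. The unresponsive bee lay above the guard of its number in 7 of 12 and below it in 5. The unresponsive bee lay below the nurse of its number in 11 of 12, the exception being number 230, with 4.34 CPM in the unresponsive bee and 1.12 CPM in the nurse. Bees of a number did not share a level beyond their spread: number accounted for 25.3% of the variation left after type and colony means, against 33.3% on average when bees were permuted within type and colony (p = 0.737). Number 210 held the extreme contrast, with 1.71 CPM in the unresponsive bee, 0.639 CPM in the guard and 908 CPM in the nurse. Numbers 205 and 35 held a high guard beside a high nurse, with 61.0 and 53.9 CPM in Guard 205 and Nurse 205, and 75.6 and 78.5 CPM in Guard 35 and Nurse 35.

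**Figure D3:**
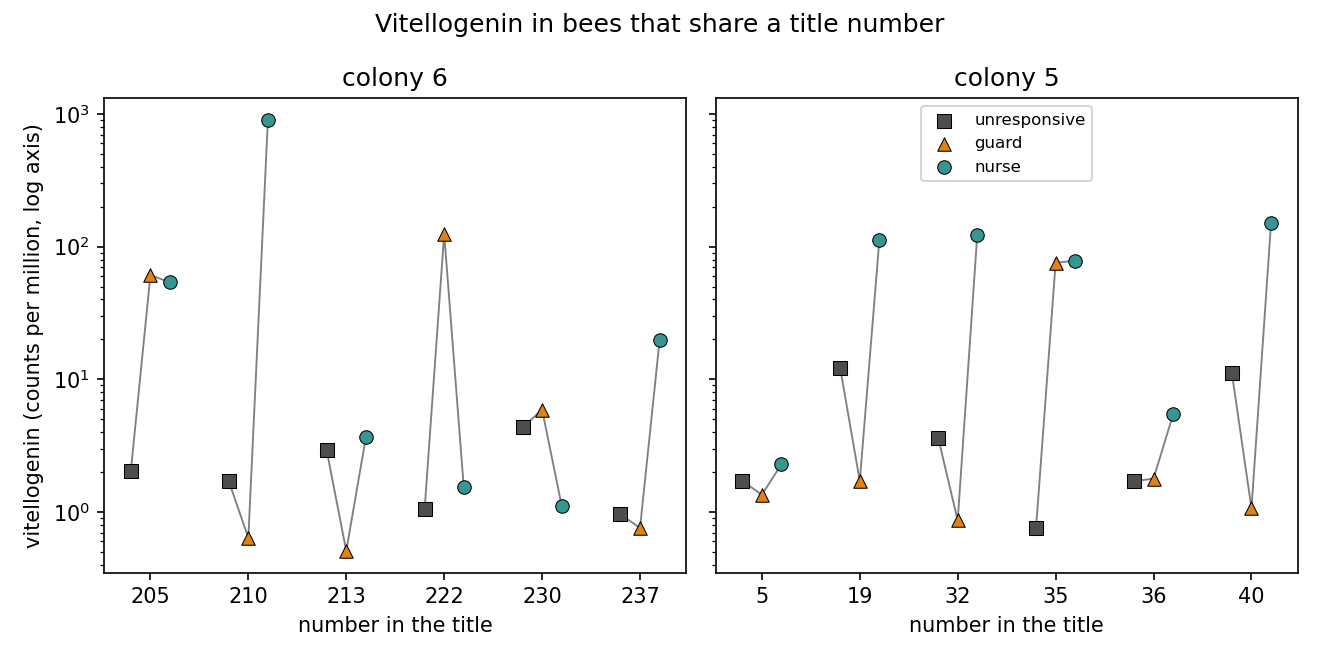
Vitellogenin in CPM on a log axis for the trio of bees that shares each title number, with colony 6 on the left and colony 5 on the right. Marker and colour show the type, and grey lines join the trio. The nurse is the highest point in 9 of 12 trios and the unresponsive bee in 0. The lowest point is the guard in 7 trios, the unresponsive bee in 4 and the nurse in 1.

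A few genes followed vitellogenin from bee to bee. By Spearman's rho of log2 CPM over the 36 bees, the 2 most alike of the other genes with a mean of at least 4 CPM were GB51698, with rho of 0.795, and GB45700, with 0.735. The 2 most opposite were GB49303, with -0.680, and GB45565, with -0.647. The file IDs carry no names, so nothing can be said of what these genes do. The bees share libraries, depth and load ranges, and these values are descriptions with no test. The median rho over the other genes was -0.00399, 35 genes had rho of at least 0.5 and 25 had rho of at most -0.5. The first 2 reached a mean of 4 CPM through the bees with high vitellogenin: in the 27 bees at or below 50 CPM of vitellogenin the mean was 0.939 CPM for GB51698 and 2.02 CPM for GB45700, and without Nurse 210 the mean of GB45700 was 3.45 CPM. Among the 8890 genes with a median of at least 4 CPM as well, rho reached at most 0.644. After type and colony means were removed rho was 0.821 for GB51698, 0.677 for GB45700, -0.589 for GB49303 and -0.495 for GB45565. Over the 20 bees of low load it was 0.911, 0.777, -0.815 and -0.752 in the same order.

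GB51698 had its highest level in the same bee as vitellogenin, 91.6 CPM in Nurse 210, and the next highest, 52.5 CPM, in Guard 222. Of the other 7 bees above 50 CPM of vitellogenin, Nurse 32, Nurse 40 and Guard 205 had 27.3, 16.6 and 13.4 CPM of GB51698, and Nurse 19, Guard 35, Nurse 35 and Nurse 205 had 6.21, 4.07, 3.44 and 2.15 CPM. The highest unresponsive bee had 3.02 CPM, above Nurse 205, so the bees with high vitellogenin and the unresponsive bees overlapped in this gene. In colony 5 it ran from 0.569 to 3.02 CPM in the 13 bees of higher load and from 3.44 to 27.3 CPM in the 5 of lower load. GB45700 was also highest in Nurse 210, at 43.0 CPM, followed by Nurse 32 at 26.4 CPM, with a median of 2.54 CPM over all bees. GB49303 was abundant and moved little, between 89.0 and 113 CPM. GB45565 ran from 5.01 to 31.9 CPM and was highest in Unresponsive 35, which had 0.760 CPM of vitellogenin. Its medians were 15.1 CPM in unresponsive bees, 11.8 CPM in guards and 8.46 CPM in nurses.

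**Figure D4:**
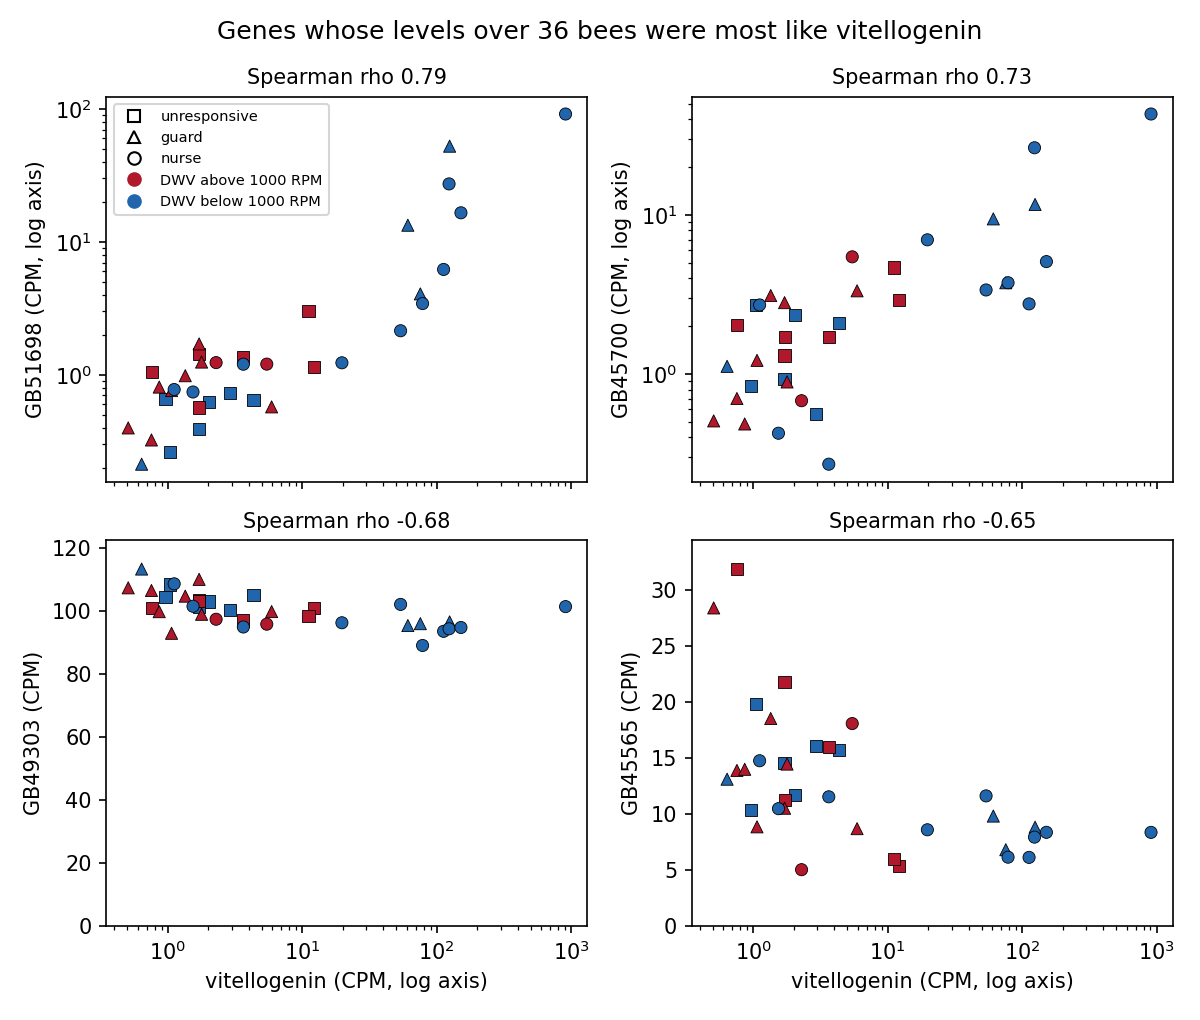
Levels in CPM of the 2 genes most alike to vitellogenin (top, log axes) and the 2 most opposite (bottom, linear vertical axes from 0) against vitellogenin in CPM on a log axis, with 1 point per bee. Marker shows the type and colour the DWV load range. GB51698 rises with vitellogenin up to 91.6 CPM in Nurse 210, while GB49303 stays between 89.0 and 113 CPM.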

How the data were processed

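Per the submitters' processing notes, HTSeq, SAMtools 0.1.19, Bowtie2 2.1.0, TopHat2 2.0.10 and CASAVA 1.8.2 were used, and their settings, strand option included, are not stated there. Files as deposited hold unnormalized read counts per gene, 1 file per bee. The 5 summary rows stayed out of totals and tests; the largest, reads in no gene, held 28.9% ± 0.534 (SD, n = 36) of counted reads. No 2 files held identical counts.

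CPM values use unscaled totals, and log2 CPM needed no pseudocount. edgeR 4.0.16 (R 4.3.3) was fitted to all libraries with type and colony as terms, TMM scaling, filterByExpr and Benjamini-Hochberg adjustment over 10948 genes at 0.05. Products of type and colony, or log10 DWV load, were added in turn, and both together for the interaction with load as a covariate. DESeq2 1.42.0 was an alternative. Each edgeR SE is the absolute log2 change over the root of its F value, and DESeq2 gave its own. Permutation tests (Python 3.11.15, NumPy 2.4.6) drew 100000 permutations, or were exact within a colony. Likeness used TMM-scaled log2 CPM with a prior count of 2, and the rule took the 2 most positive and 2 most negative genes by rho. Scripts were tested on simulated data. The gene, its comparisons and the 1000 RPM divide were chosen with earlier results of these data known. Each library is a separate bee, per the labels.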

Additional observations from a re-analysis of the deposited data

Results flagged for a closer look

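A gap between the extreme bee and the nearest of the others above Dixon's 95% critical value was looked for in the 6 groups of type and colony, on the CPM scale. Chance gives such a gap in about 1 of 20 groups of normally distributed values, which skewed CPM values are not. Nurse 210 of colony 6, at 908 CPM, stood apart from the nearest nurse of its colony at 53.9 CPM, a gap of 0.942 of the group's range against a critical value of 0.625. On the log2 scale that gap was 0.421, below the critical value. Guard 35 of colony 5, at 75.6 CPM, stood apart from the nearest guard at 1.78 CPM, with a gap of 0.988 of the range, and of 0.838 on the log2 scale. Guard 35 was the only colony 5 guard of low DWV load, at 20.1 RPM against 10412 to 17990 RPM in the other 5, and whether load had a part in its level was not tested. Nurse 210, at 3.36 RPM, shared its load range with all colony 6 nurses.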

How the results depend on the processing

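Of 136 recomputed values over 31 results, leave-one-out fits aside, 128 kept their direction and their side of the threshold. By DESeq2 the log2 change of unresponsive bees from nurses passed, at -4.90, and the slope on load passed without behavioural type in the model, at -1.68. Values that reversed had not passed in either setting, and the cause was not tested: colony 6 against colony 5 was -1.05 with load as a covariate; in linear CPM it was 33.8 by permutation and 85.7 in nurses alone, unresponsive bees against guards in colony 5 was -8.54, and Pearson's r in the lower load range was -0.191; without the 3 libraries numbered 213, whose lane tag differs, rho there was -0.0237.

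Leaving out 1 bee at a time, log2 changes by edgeR ran from -5.28 to -3.64 for unresponsive bees against nurses, -3.13 to -0.78 for guards against nurses, -2.86 to -1.69 for unresponsive bees against guards, -0.70 to 1.24 for the colonies and -1.28 to -1.02 for the slope on load, and no call changed. By permutation, with 20000 draws, they ran from -3.55 to -2.55 for unresponsive bees against nurses, which passed each time, from -3.14 to -2.05 for guards against nurses and from -0.82 to -0.01 for unresponsive bees against guards. In colony 5, high against low load ran from -5.70 to -5.37 and passed each time, an outcome fixed by ranges that did not overlap.

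With the title number as a replicate block, edgeR gave log2 changes of -3.92 for unresponsive bees against nurses (unadjusted p = 0.00228, 49 genes with a smaller p, adjusted p = 0.498), -2.06 for guards against nurses and -0.93 per log10 unit of load (unadjusted p = 0.0713, 835 genes with a smaller p). Pairing bees of a number, an alternative added later, gave -3.16 for unresponsive bees against nurses (exact permutation of signs over 12 pairs, adjusted p = 0.0146). Deviations over all genes had a median correlation of 0.126 in 36 same-number pairs of bees and of -0.0312 in 180 other pairs, a hint of shared structure; 14 of 36 bees correlated best with a bee of their own number. Of the 36 pairs, 21 exceeded 0.1. The labels do not say what a number marks, so the main tests did not pair the bees. Those tests therefore leave out any structure that the numbers carry, and the values with the block above are to be read beside them. Over all genes, DESeq2 called 8 genes between unresponsive bees and nurses, 115 between guards and nurses and 105 between unresponsive bees and guards, where edgeR called 0, 10 and 2; between guards and nurses edgeR called 38 with the block, and 1 each with DESeq2 size factors, with no filter on low counts and without the libraries numbered 213. The lowest level, 0.508 CPM, rested on 14 reads.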
